A study of Mus musculus with 8 samples.

Results

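Genes used as markers of the medium spiny neurons of the striatum, 9 in number, were followed in whole adult brain after prenatal ethanol exposure. They were *Drd1*, *Drd2*, *Adora2a*, *Ppp1r1b*, *Penk*, *Pdyn*, *Tac1*, *Rgs9* and *Pde10a*. A gene was measured by the probe set annotated with its symbol alone, and 8 of the 9 genes had exactly 1 such probe set, among 19938 genes measured in this way. *Adora2a*, the adenosine receptor gene of indirect pathway neurons, had 0 probe sets under its symbol in the annotation used and was not analysed here. The rule that picked the probe sets used symbols and mean levels, and no difference between groups. The genes themselves were chosen with earlier results of these data known.

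Medium spiny neurons are the GABAergic projection neurons that make up most of the striatum. One population projects directly to the output nuclei of the basal ganglia and carries the dopamine D1 receptor (*Drd1*), dynorphin (*Pdyn*) and substance P (*Tac1*). The other projects indirectly, through the external globus pallidus, and carries the dopamine D2 receptor (*Drd2*), the adenosine receptor encoded by *Adora2a* and enkephalin (*Penk*). Dopamine raises cyclic AMP through the D1 receptor and lowers it through the D2 receptor. Both populations contain DARPP-32 (*Ppp1r1b*), the phosphodiesterase PDE10A and the G-protein regulator RGS9, which act on or below these receptors.

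All 4 groups were male C57BL/6J mice, and whole brains were taken at postnatal day 70. Early ethanol offspring came from dams injected with ethanol on gestational days 8 and 11 (2 doses of 2.5 g/kg on each day), and early saline offspring from dams given saline on the same days. Late ethanol and late saline offspring came from dams injected in the same manner on gestational days 14 and 16. Each group had 2 Affymetrix Mouse Gene 1.0 ST arrays, and each array held the pooled RNA of 3 mice that were not littermates, so that p-values measure the spread between pools and not between single mice. The striatum is only a part of the brain that was homogenised, so any RNA of these genes from other regions entered the values as well. Fewer cells of a type and less RNA per cell cannot be told apart in such samples.

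Values are deposited log2 expression, and a difference is the ethanol mean minus the saline mean within a timing. The timings appeared to have been normalised apart (array medians 6.74 to 6.84 early and 7.21 to 7.30 late), so no level was compared between them, nor between genes, whose probes differ. Any 2 arrays of a timing correlated at 0.988 or above. As background served the probe sets of olfactory and vomeronasal receptors, 1210 in all, at their 95th percentile, and 58.4% (early) and 51.7% (late) of the 23410 probe sets tested had means above it. Of the 8 genes, 7 lay above it at both timings, and *Pdyn* did not.

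None of the 8 genes passed a test of ethanol against saline at either timing. The adjusted p (limma, Benjamini-Hochberg) was 1 for each gene at each timing, and none had an unadjusted p under 0.05. No probe set on the array passed the adjusted threshold of 0.05 at either timing, which is 0% of those tested, while 401 (1.71%) early and 583 (2.49%) late had an unadjusted p under 0.05. At the thresholds used in the study, an unadjusted p under 0.05 with a fold of 1.2, 216 probe sets (0.923%) passed early and 272 (1.16%) late, and 0 of the 8 genes were among them. The 95% intervals of the 16 differences all held 0 and lay between 0.771-fold and 1.34-fold of saline. A change of the signal by 1.5-fold in either direction was therefore outside each interval. For *Pdyn*, at background, the intervals bound the signal only and not a change in its RNA. Only 4 of the 16 intervals lay wholly inside 1.2-fold, those of *Drd2* at both timings, *Rgs9* early and *Pde10a* late.

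**Figure D1:**
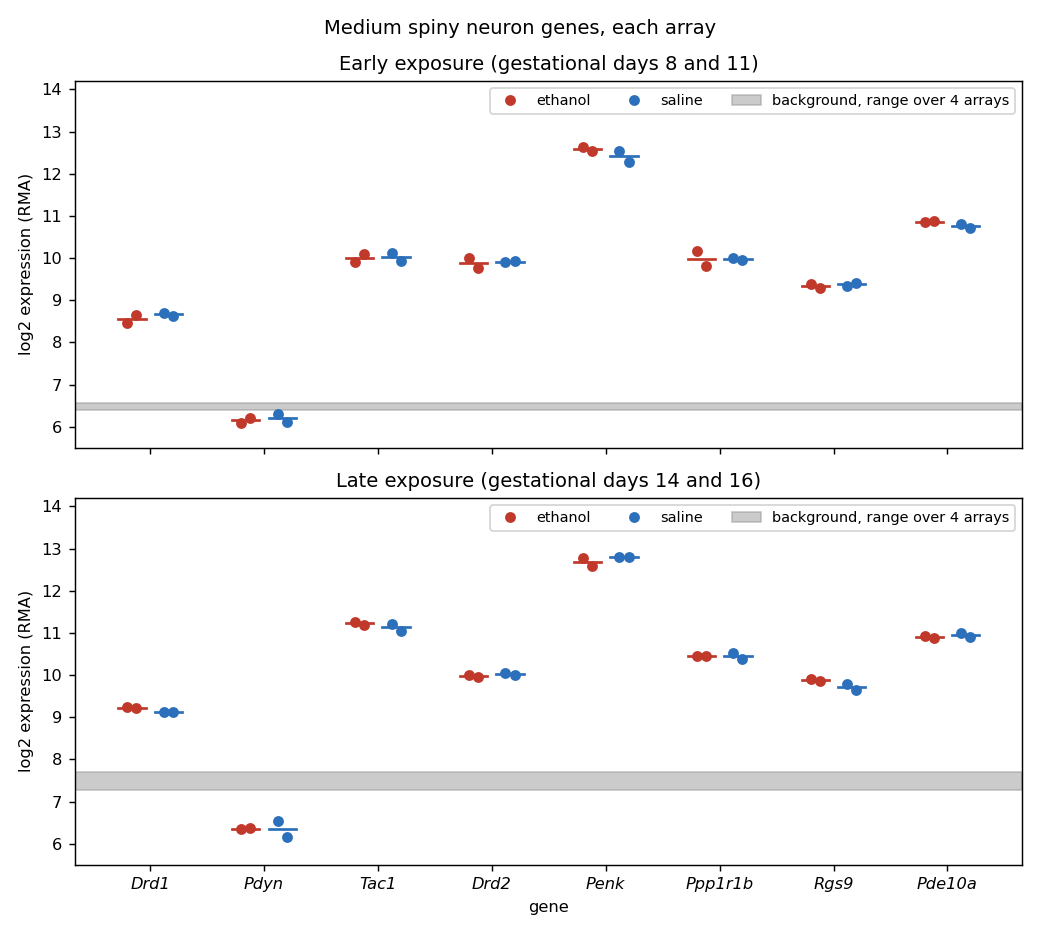
Log2 expression (RMA) of the 8 genes on each array, with ethanol to the left of saline for each gene, early exposure above and late exposure below. Points are arrays (2 per group), short bars are group means, and the grey band is the range of the background over the 4 arrays of a timing. The 7 genes other than *Pdyn* lie above the band, and the ethanol and saline points of each gene lie close together.

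Of the dopamine receptors, *Drd1* (probe set 10409319) had values of 8.46 and 8.65 in early ethanol brains, against 8.71 and 8.62 in early saline brains. The groups overlapped, with ethanol replicate 1 the lowest array. The early difference was −0.11 (SE 0.090, 95% interval −0.31 to 0.10), and it was −0.0085 without ethanol replicate 1 and −0.20 without ethanol replicate 2. After late exposure *Drd1* had 9.25 and 9.21 in ethanol brains, against 9.12 and 9.11 in late saline brains. Both late ethanol arrays were above both saline arrays, and the difference was 0.12 (interval −0.09 to 0.32). The early-minus-late contrast, the early difference less the late one, was −0.22 (limma adjusted p = 0.9996). Without early ethanol replicate 2 it was −0.32, past the study's thresholds but not the adjusted one, and without early ethanol replicate 1 it was −0.12.

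*Drd2* (probe set 10585169) had 10.01 and 9.77 in early ethanol brains, against 9.92 and 9.92 in early saline brains. The ethanol arrays stood on either side of the saline arrays, and the difference was −0.03 (interval −0.24 to 0.19). After late exposure *Drd2* had 10.01 and 9.96 in ethanol brains, against 10.04 and 10.00 in late saline brains, a difference of −0.03. The late groups overlapped, and the early and late differences were 0.01 apart.

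Of the peptide precursors, *Penk*, which encodes proenkephalin, gave the largest early difference of the 8 genes in the values as deposited. Its values (probe set 10511363) were 12.63 and 12.55 in early ethanol brains, against 12.55 and 12.28 in early saline brains. The lower ethanol array and the higher saline array were almost equal, so that the groups just overlapped. The early difference was 0.17 (SE 0.110, interval −0.08 to 0.42). It rested on the saline arrays, being 0.04 without saline replicate 2. With saline replicate 1 left out it was 0.30 and passed the study's thresholds (limma adjusted p = 1). With quantile normalisation it was 0.05. After late exposure the sign was the opposite. *Penk* had 12.78 and 12.58 in late ethanol brains, against 12.80 and 12.80 in late saline brains. Both ethanol arrays were below both saline arrays, most of the difference of −0.12 (interval −0.37 to 0.13) lay with ethanol replicate 2, and it was −0.02 without that array and −0.22 without replicate 1. The early-minus-late contrast was 0.29 (SE 0.156, interval −0.06 to 0.65, adjusted p = 0.9996), the largest of the 8 genes as deposited and not past the threshold. With quantile normalisation it was 0.14, smaller in size than those of *Drd1* (−0.27), *Rgs9* (−0.25) and *Tac1* (−0.16). In the values as deposited, leaving out 1 array moved the *Penk* contrast between 0.16 (without early saline replicate 2) and 0.43 (without early saline replicate 1). It passed the study's thresholds without early saline replicate 1 or late ethanol replicate 1 (0.39), and not the adjusted threshold.

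*Tac1*, which encodes the precursor of substance P and neurokinin A, had 9.92 and 10.10 in early ethanol brains, against 10.13 and 9.92 in early saline brains (probe set 10536363). Each group held a high and a low array, and the difference was −0.02 (interval −0.27 to 0.23). After late exposure *Tac1* had 11.27 and 11.19 in ethanol brains, against 11.22 and 11.05 in late saline brains. The groups overlapped, and the difference was 0.09 (interval −0.16 to 0.34).

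*Pdyn*, which encodes prodynorphin, was at background on all 8 arrays (probe set 10487613). It had 6.09 and 6.22 in early ethanol brains, against 6.31 and 6.10 in early saline brains, and 6.35 and 6.36 in late ethanol brains, against 6.55 and 6.16 in late saline brains. The groups overlapped at both timings. Its differences of −0.05 and 0.00 therefore lie below the level at which expression could be told from background, and it had the widest intervals of the 8 genes.

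Of the signalling proteins shared by both populations, *Ppp1r1b* (probe set 10380862), whose product inhibits protein phosphatase 1 once phosphorylated by protein kinase A, had 10.17 and 9.80 in early ethanol brains, against 9.99 and 9.96 in early saline brains. The gap between the ethanol arrays, 0.37, was the widest between replicates for any of the 8 genes apart from the 0.39 of *Pdyn* in late saline, and the difference between the groups was 0.02 (SE 0.121). In late ethanol brains it had 10.45 and 10.45, against 10.52 and 10.38 in late saline brains. The late ethanol arrays lay between the saline arrays, and the difference was 0.01.

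*Rgs9*, a regulator that speeds GTP hydrolysis on G-protein alpha subunits, had 9.39 and 9.28 in early ethanol brains, against 9.35 and 9.41 in early saline brains (probe set 10392415). The groups overlapped, and the difference was −0.04 (interval −0.24 to 0.16). In late ethanol brains it had 9.90 and 9.87, against 9.79 and 9.65 in late saline brains. Both ethanol arrays were above both saline arrays, and the difference was 0.16 (SE 0.086, interval −0.04 to 0.36). It was 0.09 without saline replicate 2 and 0.23 without saline replicate 1. With quantile normalisation it was 0.22, with an unadjusted p under 0.05 and a fold below 1.2.

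*Pde10a*, which degrades cyclic AMP and cyclic GMP, had 10.86 and 10.87 in early ethanol brains, against 10.81 and 10.72 in early saline brains (probe set 10441680). Both ethanol arrays were above both saline arrays, and the difference was 0.10 (SE 0.079, interval −0.08 to 0.28). In late ethanol brains it had 10.93 and 10.88, against 10.99 and 10.91 in late saline brains. The late groups overlapped, and the difference was −0.05 (interval −0.23 to 0.14).

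**Figure D2:**
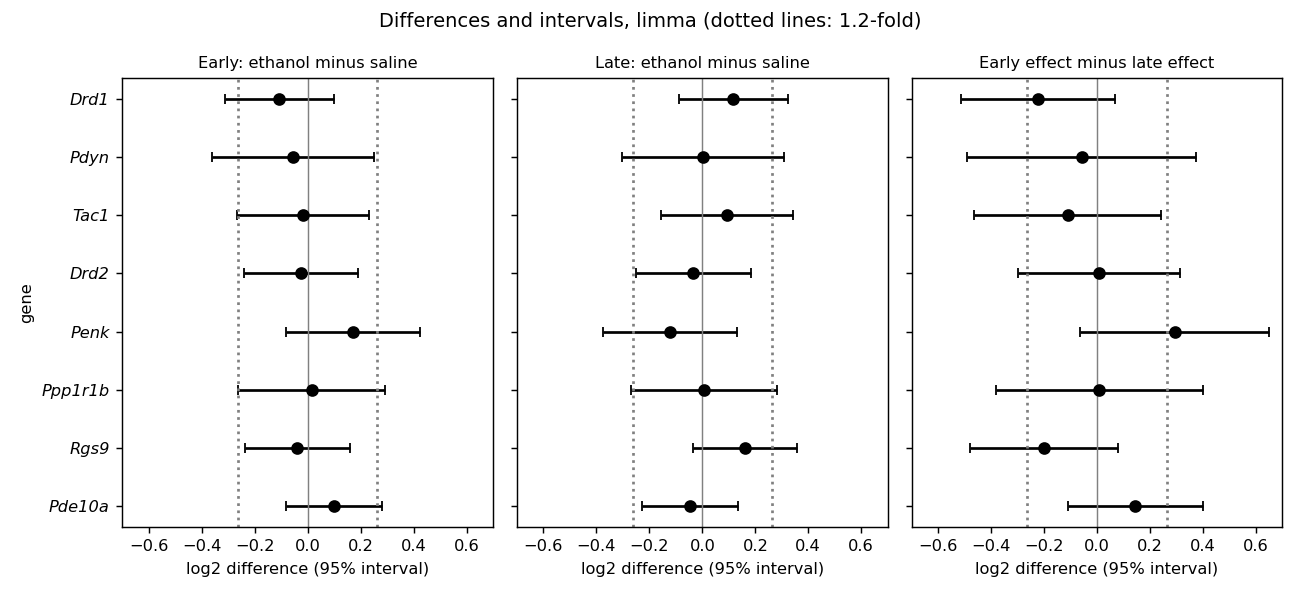
Log2 difference of each gene, ethanol minus saline, after early exposure (left) and late exposure (middle), and the early-minus-late contrast (right). Points are limma estimates, bars are 95% intervals, and dotted lines mark 1.2-fold. No estimate passes 1.2-fold within a timing, and each bar crosses 0.

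The differences of the 8 genes were close in size to those of all probe sets tested. That set was not matched to the genes for level, with 58.4% (early) and 51.7% (late) above background, against 7 of the 8 genes. After early exposure 3 had a higher mean in ethanol and 5 a lower one, with a median difference of −0.02 and a range of −0.11 to 0.17. Over all probe sets tested the median was also −0.02, and 40.2% were higher. After late exposure 5 genes were higher and 3 lower, with a median of 0.01 and a range of −0.12 to 0.16, while 47.3% of all probe sets were higher and their median was −0.01. The median size of the difference, regardless of sign, was 0.05 early and 0.07 late for the 8 genes, and 0.06 early and 0.07 late for all probe sets tested. Ethanol and saline arrays did not overlap for 1 gene early (*Pde10a*) and 3 late (*Drd1*, *Rgs9* and *Penk*), where 26.4% and 28.4% of all probe sets did not overlap.

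Divided by pathway, the 3 direct pathway genes (*Drd1*, *Pdyn* and *Tac1*) all had negative differences early (median −0.05) and positive ones late (median 0.09), none past a threshold, with *Pdyn* at background and its late sign turned by centring or quantile normalisation. The early differences of *Pdyn* and *Tac1* turned positive without early ethanol replicate 1 (0.01 and 0.07) and without early saline replicate 1 (0.05 and 0.09). Of the indirect pathway genes, *Penk* differed by 0.17 early and *Drd2* by −0.03, and late both differences were negative, that of *Drd2* turning positive with quantile normalisation. The early-minus-late contrast was below 0 for 4 genes and above 0 for the other 4. Of all probe sets, 44.8% were above 0. The unadjusted p of this contrast was under 0.05 for 2.06% of all probe sets, the study's thresholds were passed by 1.99%, and 0 of the 8 genes were among either.

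The widest gaps between replicate pools exceeded every difference between the groups of a timing for these 8 genes. A gap is between single arrays, whereas a difference is between group means, which vary less, so the comparison is a description only. In early ethanol, 4 genes were lower in replicate 1 (*Drd1* by 0.20, *Tac1* by 0.18, *Pdyn* by 0.13 and *Pde10a* by 0.02 on the log2 scale). The other 4 were higher in it, with *Ppp1r1b* ahead by 0.37 and *Drd2* by 0.24. The 3 direct pathway genes thus ran opposite to *Drd2* and *Penk* within this one group. The median gap between these replicates, regardless of sign, was 0.15 for the 8 genes and 0.09 over all probe sets tested. In the other groups that gap was 0.05 in late ethanol, against 0.09 in early saline and 0.11 in late saline, where all probe sets had 0.11, 0.11 and 0.10. The gap in late ethanol was thus below that of all probe sets, and the saline gaps were close to it.

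In late ethanol, 7 of the 8 genes were higher in replicate 1 than in replicate 2, against 52.5% of all probe sets, and in late saline likewise 7 of the 8, against 67.3% of all probe sets. Late saline replicate 2 was below the mean of its timing for 7 of the 8 genes (median deviation −0.07), the exception being *Penk*, and late saline replicate 1 had the highest median (0.05). Late ethanol replicate 1 was above the mean for 7 of the 8 genes (median 0.02), and late ethanol replicate 2 had a median deviation of 0.01. After early exposure the median deviations were 0.04 and 0.04 in ethanol, against 0.03 and −0.05 in saline.

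**Figure D3:**
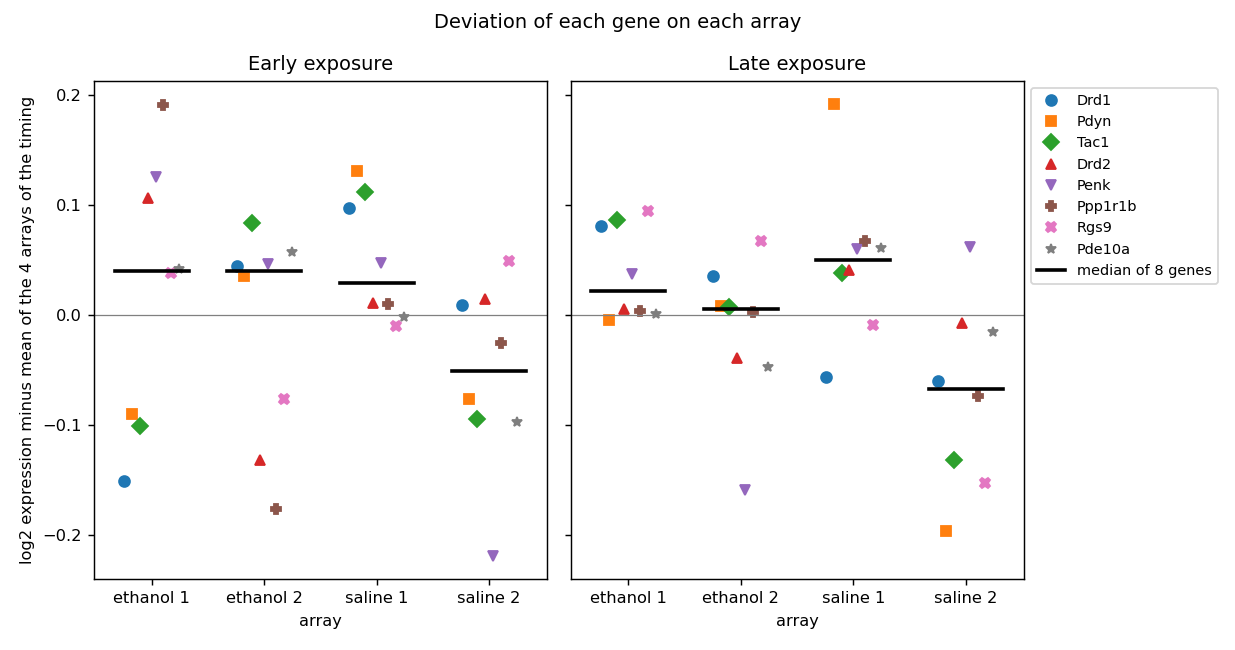
Deviation of each gene on each array from the mean of the 4 arrays of its timing (log2 scale), with symbols for genes and black bars for the median of the 8 genes. In early ethanol replicate 1 the 3 direct pathway genes lie below 0 and *Ppp1r1b*, *Penk* and *Drd2* above it, and in late saline replicate 2 only *Penk* lies above 0.

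Genes that act in or on striatal neurons were taken from 4 further lists. Of the 17 genes of striatal signalling measured, 16 were above background. After early exposure 8 were higher and 9 lower (median −0.02), after late exposure 4 were higher and 13 lower (median −0.04), and 0 had an unadjusted p under 0.05 at either timing. *Chrm4*, the muscarinic M4 receptor that opposes D1 signalling in direct pathway neurons, had 8.58 and 8.42 in early ethanol brains, against 8.41 and 8.15 in early saline brains. Its ethanol arrays were both above its saline arrays, and the difference was 0.22 (SE 0.106). *Gnb5*, the G-protein beta subunit that partners RGS9, had 10.84 and 10.98 in late ethanol brains, against 11.18 and 11.11 in late saline brains. Both ethanol arrays were lower, with a difference of −0.23 (SE 0.103), while *Rgs9* itself was higher in both. In saline pools, 16 of these 17 genes were higher in replicate 1 than in replicate 2 at each timing, against 54.2% of all probe sets early and 67.3% late.

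All 11 striatal transcription factors were measured, 7 of them above background, and 5 were higher and 6 lower at each timing (medians 0.00). *Meis2*, a homeodomain factor of the developing striatum that olfactory bulb granule cells also express, passed the study's thresholds early. It had 10.82 and 10.97 in early ethanol brains, against 11.10 and 11.29 in early saline brains, and both ethanol arrays were below both saline arrays. The difference was −0.30 (SE 0.094, adjusted p = 1). After late exposure it was 0.02, and the early-minus-late contrast was −0.33 (limma adjusted p = 0.9996), past the study's thresholds but not the adjusted one. The smallest late p of the list was that of *Ebf1*, a factor of direct pathway neurons, with a difference of −0.18 and overlapping groups.

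Among the 6 opioid and tachykinin receptors, on which the peptides of these neurons act, 2 were higher and 4 lower early (median −0.04), and 5 were higher and 1 lower late (median 0.07). Of these, 5 were above background early and 3 late, and 0 had an unadjusted p under 0.05 at either timing. *Oprk1*, the kappa receptor for dynorphin, had 6.69 and 6.68 in early ethanol brains, against 6.91 and 7.04 in early saline brains. Both ethanol arrays were lower, with a difference of −0.29 (SE 0.130). In late ethanol brains it had 7.94 and 7.77, against 7.88 and 7.49 in late saline brains, a difference of 0.17 with overlapping groups. Late saline replicate 1 lay between the ethanol arrays, and late saline replicate 2 was at the background of its array (7.50). The early-minus-late contrast, which includes that value, was −0.46 (SE 0.184, limma adjusted p = 0.9996), past the study's thresholds but not the adjusted one. *Tacr3*, the neurokinin 3 receptor, differed by 0.18 early but was at background at both timings.

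The 6 genes of dopamine synthesis, transport and breakdown that were measured all lay above background. Early, 2 were higher and 4 lower (median −0.10), and late, 1 was higher and 5 lower (median −0.05). *Th* encodes tyrosine hydroxylase, which makes the precursor of dopamine. It is found in midbrain dopamine neurons and in periglomerular cells of the olfactory bulb, and it passed the study's thresholds early. It had 8.43 and 8.60 in early ethanol brains, against 8.90 and 9.20 in early saline brains, and both ethanol arrays were below both saline arrays. The difference was −0.53 (SE 0.134, adjusted p = 1). After late exposure it was −0.22, and the early-minus-late contrast was −0.31. *Slc6a3*, the dopamine transporter of midbrain dopamine neurons, differed by −0.18 early and by −0.11 late.

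**Figure D4:**
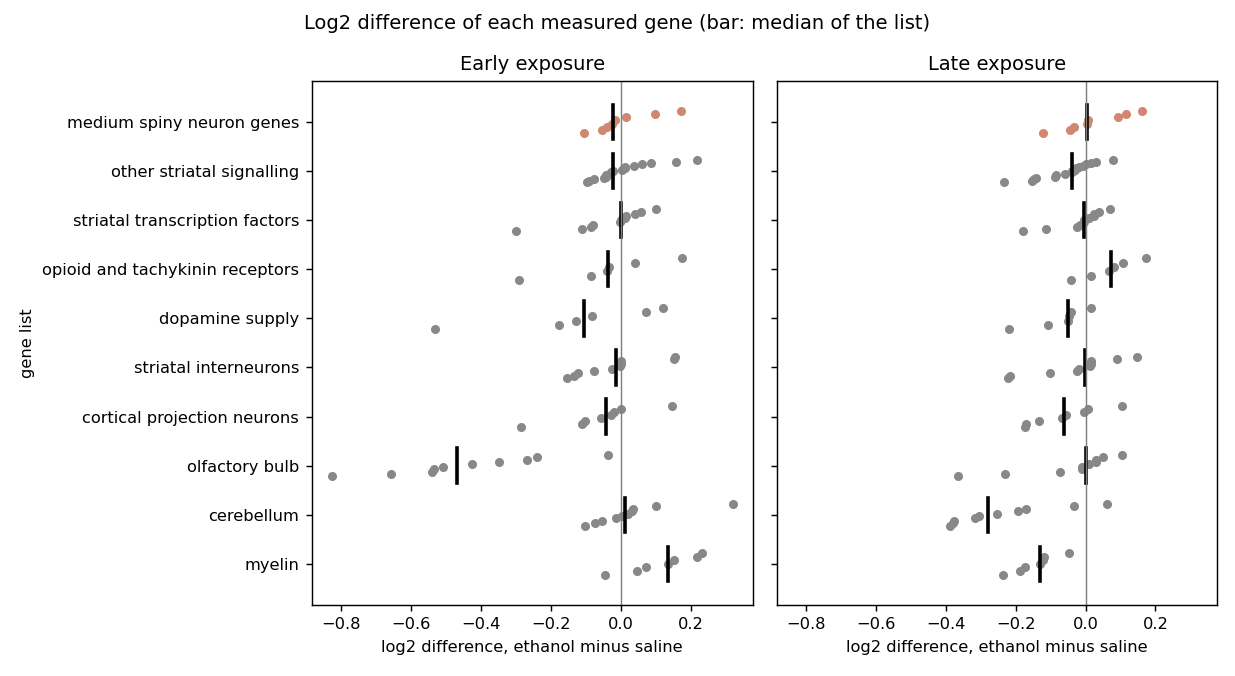
Log2 difference (ethanol minus saline) of each measured gene of 10 lists, after early exposure (left) and late exposure (right). Points are genes, coloured for the 8 medium spiny neuron genes, and black bars are medians. The medium spiny neuron genes lie around 0 at both timings, the olfactory bulb genes are all below 0 early, and 9 of 10 cerebellar genes are below 0 late. The late cerebellar differences lay mostly with late ethanol replicate 1.

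Some lists of genes used as markers of other brain regions had larger median differences than the 8 medium spiny neuron genes. Whether the listed genes are limited to those regions was not tested. All 10 olfactory bulb markers were above background early and had lower means in early ethanol brains (median −0.47), and 7 passed the study's thresholds. *Omp*, of olfactory sensory neurons, differed by −0.66 (limma adjusted p = 1) and *Gng4* by −0.43 (limma adjusted p = 1). The summed log2 level of the 10 markers was 79.8 and 81.8 in early ethanol brains, against 84.9 and 85.5 in early saline brains. Over the same arrays the summed level of the 8 medium spiny neuron genes was 77.5 and 77.2 in ethanol, against 77.8 and 76.9 in saline, so that those groups overlapped.

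After late exposure 9 of 10 cerebellar markers had lower means in ethanol (median −0.28), among them *Cbln1* by −0.38 and *Zic2* by −0.38, both past the study's thresholds (limma adjusted p = 1 for both). Of the 10, 9 were above background. Their summed log2 level was 101.2 and 104.2 in late ethanol brains, against 105.4 and 104.7 in late saline brains. The lower ethanol means lay mostly with late ethanol replicate 1, where the median deviation from the mean of the timing was −0.30, with 1 of 10 markers above it. In late ethanol replicate 2 the median deviation was 0.04, with 8 of 10 above. The saline medians were 0.15 and 0.07, with 9 and 8 above. The summed level of the 8 medium spiny neuron genes was 80.9 and 80.5 in late ethanol brains, against 81.0 and 80.1 in late saline brains, again overlapping.

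Of the 7 myelin genes measured, all above background, 6 were higher early (median 0.14), with summed log2 levels of 77.7 and 76.9 in ethanol, against 77.3 and 75.7 in saline. All 7 were lower late (median −0.13), with 79.7 and 80.0 in ethanol, against 81.2 and 80.5 in saline. The 6 endothelial genes were lower in ethanol early (median −0.15, sums of 47.5 and 47.3, against 47.9 and 48.5 in saline) and 5 of 6 were lower late (median −0.13, sums of 51.0 and 51.5, against 52.5 and 51.2 in saline). Of 8 cortical projection neuron genes measured, 7 were lower in ethanol early (median −0.04) and 6 late (median −0.06). The 10 genes of striatal interneurons had 4 higher and 6 lower early and 5 of each late. Whether these differences in marker genes reflect other cells, and what part they had in the values of the medium spiny neuron genes, was not tested.

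The 5 genes outside the lists whose course over the 8 arrays was nearest to the mean course of the 8 genes, each value taken from the mean of its timing, were *Nrd1*, *Acp1*, *Eif4g3*, *Pcm1* and *Adam22*. Their root mean square distances from it were 0.012 to 0.016 on the log2 scale, out of 10884 genes compared (median 0.086). The 8 genes themselves lay at 0.044 (*Pde10a*) to 0.100 (*Penk*) from the mean course, of which they are part. The 5 genes were picked as the nearest, so their smaller distances were set by the choice. The mean course varied less (SD 0.047) than any single gene (0.054 for *Pde10a* to 0.124 for *Pdyn*). A distance from it therefore also reflects the spread of the gene itself. The share of compared genes nearer to that mean than the gene itself was 5.6% for *Pde10a*, 23.5% for *Drd2*, 26.5% for *Tac1* and 28.9% for *Rgs9*. It was 45.4% to 50.1% for *Drd1*, *Ppp1r1b* and *Pdyn*, and 64.9% for *Penk*. The 5 nearest genes and the mean course had early saline replicate 1 high and late saline replicate 2 low.

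Of the 8 genes, 6 had promoter windows in RefSeq (GRCm38.p6, 250 bases before to 50 after a transcript start), 9 windows in all, and *Penk* and *Ppp1r1b* had no entry in the table used. The windows were searched on both strands for the cyclic AMP response element TGACGTCA, on which the D1 and D2 receptors bear through protein kinase A, and for its half-site TGACG, which the full element contains. The full element was in 0 of the 9 windows (1.79% of 32851 windows of all genes), and the half-site was in 1 of the 9 (20.8% of all). This was the window of *Tac1* at chr6:7554811-7555110 on the + strand, shown because it alone held a match. It is printed 5′ to 3′ with both matches, which read on the opposite strand, in capitals.
Tac1: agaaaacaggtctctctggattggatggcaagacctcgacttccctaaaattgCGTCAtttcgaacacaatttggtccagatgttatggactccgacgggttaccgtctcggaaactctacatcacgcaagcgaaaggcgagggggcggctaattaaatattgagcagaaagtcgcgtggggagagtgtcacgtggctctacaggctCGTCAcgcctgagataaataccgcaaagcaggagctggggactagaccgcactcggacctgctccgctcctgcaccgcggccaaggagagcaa
A match of letters is a description only. The 9 windows held a median of 19 CpG dinucleotides (5 to 23), against 7 over all windows, and a median GC content of 59.3%, against 52.7%.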

How the data were processed

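Total RNA of whole brain was hybridised to Affymetrix Mouse Gene 1.0 ST arrays. The authors summarised each probe set by RMA with quantile normalisation and a correction for GC content and deposited log2 values (Partek, version 6.6 in the submitters' notes), which were used as deposited. The processing stated for the early arrays was taken to hold for the late ones. The sources used here do not give the genome build or the annotation version. Of 35556 probe sets, 23410 carried a gene symbol and were tested, 21789 of them a single one. In any 2 arrays at most 6 values were identical.

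The 4 group means were fitted over all 8 arrays in limma 3.58.1 (R 4.3.3) with moderated variances (4 residual degrees of freedom before moderation). This fit replaces the one-way ANOVA of the study's methods, which was run as an alternative. The Benjamini-Hochberg adjustment ran over the 23410 probe sets, and intervals of differences are at 95%. The script was tested on simulated data. Probe sets counted as above background in a timing had 4-array means higher than 95% of the receptor probe sets. The number of arrays limits the precision.

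For each gene the probe set with the highest mean would have been used, but each had only 1. From each striatal or dopamine list the genes past the study's thresholds in either timing were named, with at most 2 others of smallest p. From the lists of other cells at most 2 of smallest p were named, and 5 genes by likeness of course. Of 140 listed genes, 133 were measured. The 8 genes and all lists were chosen with earlier results of these data known, so the lists were described by counts and medians, with no test. Alternatives were other normalisations, filters on dim probe sets, an intensity trend, every probe set, a fit on 4 arrays, a replicate block and each array left out. Replicate numbers are repeated in all groups, but no label says that they mark a shared litter or day.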

Additional observations from a re-analysis of the deposited data

How the results depend on the processing

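None of the 8 genes passed the adjusted threshold under any of the 10 other settings or with any of the 8 arrays left out (limma, or the unmoderated test, with Benjamini-Hochberg adjustment). Their adjusted p ranged from 0.999 to 1 early, 0.672 to 1 late and 0.846 to 1 for the early-minus-late contrast. The study's thresholds were passed by *Penk* early (0.30) and in the contrast (0.43) without early saline replicate 1, by *Penk* in the contrast (0.39) without late ethanol replicate 1 and by *Drd1* in the contrast (−0.32) without early ethanol replicate 2. An unadjusted p under 0.05 with a smaller fold was found late for *Rgs9* with quantile normalisation (0.22) and for *Drd1* in the unmoderated test (0.12). With 2 pools a group, the arrays limit what can be shown to the intervals given above, and signal over background leaves *Pdyn* unmeasured. Each gene had 1 probe set, so averaging over probe sets gave no other value, and the fits on 4 arrays give no early minus late value. The cause of the changes below was not tested.

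Directions turned only for differences near 0. After centring arrays on their medians, the late difference was −0.015 for *Ppp1r1b* and −0.018 for *Pdyn*. With quantile normalisation of all 8 arrays, the late difference was 0.020 for *Drd2*, −0.039 for *Pdyn* and 0.017 for *Pde10a*, and the early-minus-late contrast was −0.032 for *Drd2* and −0.037 for *Ppp1r1b*. With 1 array left out, the early difference ranged from −0.14 to 0.093 for *Drd2*, −0.17 to 0.20 for *Ppp1r1b*, −0.16 to 0.049 for *Pdyn*, −0.12 to 0.086 for *Tac1* and −0.095 to 0.019 for *Rgs9*. The late difference ranged from −0.064 to 0.077 for *Ppp1r1b* and −0.19 to 0.20 for *Pdyn*. The early-minus-late contrast ranged from −0.11 to 0.13 for *Drd2*, −0.18 to 0.19 for *Ppp1r1b* and −0.25 to 0.14 for *Pdyn*. With 1 array left out, the median of the 8 genes ranged from −0.021 to 0.055 early, −0.061 to 0.098 late and −0.13 to 0.055 for the difference between timings. With all arrays kept and centred on their medians, the early median of the 8 genes was −0.032.

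Counts over all genes at the study's thresholds moved more (216 early, 272 late and 465 for the early-minus-late contrast). The unmoderated test on 4 arrays gave 60 early and 58 late. Testing every probe set gave 669, 674 and 854, and leaving out the lowest 50% gave 169 late and 213 for the difference between timings. Quantile normalisation changed the early split to 31 higher and 139 lower (65 and 151 as deposited) and that of the difference between timings to 144 and 326 (195 and 270). With 1 array left out the counts ranged from 210 to 781 early (the highest without early saline replicate 2), 242 to 1750 late and 233 to 1284 for the difference between timings (both highest without late ethanol replicate 2). Without early ethanol replicate 2, 13 probe sets passed the adjusted threshold early and 5 in the early-minus-late contrast, none of them among the 8 genes.

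With the replicate number as a block within each timing, 229, 354 and 582 probe sets passed the study's thresholds, and none of the 8 genes passed the adjusted threshold. Deviations of same-numbered arrays correlated at 0.466 early and −0.464 late, so that the numbers were not taken as pairs. With the late numbers crossed in the block, a setting added after seeing the data, the counts were 564, 519 and 1099.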
